A study of Mus musculus with 6 samples.

Results

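Transcripts of 6 receptor-induced transcription factors, the nuclear receptors Nr4a1, Nr4a2 and Nr4a3 and the zinc finger factors Egr1, Egr2 and Egr3, were followed in regulatory T cells (Tregs) of mice with and without the gene for interleukin 33. The members were taken by symbol, and all 6 of 6 were found among the 37187 genes of each deposited table. Messenger RNA had been sequenced from Tregs of tumour-draining lymph nodes, taken 14 days after 300000 cells of the melanoma line B16.F10 were placed under the skin. The 3 control libraries (WT, replicates 1 to 3) came from C57BL6 mice, and the 3 knockout libraries (KO, replicates 4 to 6) from il33-/- mice on the C57BL6 background. Mice of both groups carried the tumour. The cells had been sorted by CD4, CD25 and GITR, so Foxp3, the defining factor of Tregs, is not named in the sorting protocol, although the cell type label lists it. Libraries are called WT 1 to WT 3 and KO 4 to KO 6, by their replicate numbers. The labels do not give the animals' age, the deleted part of the gene or the number of animals per library. The p-values therefore measure the spread between these libraries, which may be technical.

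The NR4A factors are orphan nuclear receptors that bind DNA without a known activating ligand, and the EGR factors bind GC-rich DNA through zinc fingers. Both families are switched on within minutes of antigen receptor engagement, and both are used as readouts of that signal. NR4A genes are known as targets of calcium, MEF2 and CREB signals and are needed in developing Tregs to hold Foxp3 expression. EGR genes are known as targets of the ERK kinases acting through serum response factor, and Egr2 and Egr3 restrain T cell activation.

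Il33 itself had 7, 0 and 9 counts in WT 1, WT 2 and WT 3 and 3, 8 and 2 counts in KO 4, KO 5 and KO 6, too few to check the labels. Total counts ran from 18071928 to 21165063 per library, and the members held between 228 and 23634 reads in a library. The labelled cell type carried its markers, with Foxp3 at 719.2 to 856.9 CPM (counts scaled to library size) and Cd4 at 546.6 to 625.0 CPM. RNA of B cells was also present. The sum of 18 B cell markers found, of 19 listed, was 3705, 1726 and 3042 CPM for WT 1, WT 2 and WT 3 against 1338, 1673 and 1337 CPM for KO 4, KO 5 and KO 6. None of the 18 was at 0, and 1 was called lower. Cd79a and Ms4a1, which mark B cells, had log2 fold changes of -1.93 and -1.91 and were not called (edgeR adjusted p = 0.152 and 0.176). The summed CPM of 7 Treg markers was higher in KO, at 3860 to 4466 in WT and 4627 to 4874 in KO, with 1 called higher. That of 8 stroma and endothelium markers was 209.9 to 228.7 in WT and 244.7 to 255.5 in KO, with 1 called higher and Ccl19 at 0. That of 6 melanoma markers was 22.9 to 30.7 in WT and 31.9 to 36.8 in KO, with 1 called higher and Dct, Tyr and Tyrp1 at 0. Other lists were lower in KO without overlap: dendritic cells (21.8 to 25.6 and 16.2 to 19.6, 1 called lower), CD8 T cells (36.3 to 41.0 and 27.7 to 36.2, 0 called), NK cells (7.02 to 10.6 and 4.24 to 6.71, 0 called) and conventional CD4 T cells (562.3 to 609.3 and 481.6 to 559.4, 1 called each way). Macrophage (at most 50.03 CPM) and plasma cell sums (174.8 to 215.7 CPM) overlapped between the groups. The part of these lists in the results that follow was not tested. Fits that take the B cell markers into account are given below. In bulk RNA, fewer cells of a type and less RNA per cell cannot be told apart.

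The DNA just before the members' start sites is shown first. Its part in the fold changes given below was not tested. RefSeq windows of the build GRCm38.p6 matched 4 of 6 members, and the others were Egr1 and Egr3. The strand of each gene is printed 5′ to 3′, up to the base before the start site or before the first annotated exon. Capitals mark the CREB half-site (TGACG, or CGTCA on the other strand) and the CArG box, the binding motif of serum response factor. All 4 stretches hold no annotated exon; those of Nr4a1 and Egr2 lie in introns of the gene's longer transcripts, and those of Nr4a2 and Nr4a3 lie before the gene. The Nr4a1 stretch is chr15:101266596-101266845 (plus strand), the Nr4a2 stretch chr2:57124004-57124253 (minus strand), the Nr4a3 stretch chr4:48045055-48045152 (plus strand) and the Egr2 stretch chr10:67537619-67537868 (plus strand).
Nr4a1: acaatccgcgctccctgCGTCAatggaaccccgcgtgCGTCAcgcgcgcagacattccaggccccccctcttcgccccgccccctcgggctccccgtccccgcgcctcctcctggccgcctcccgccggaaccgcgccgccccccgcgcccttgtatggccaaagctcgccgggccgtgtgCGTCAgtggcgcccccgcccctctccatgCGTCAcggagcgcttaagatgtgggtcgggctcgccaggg
Nr4a2: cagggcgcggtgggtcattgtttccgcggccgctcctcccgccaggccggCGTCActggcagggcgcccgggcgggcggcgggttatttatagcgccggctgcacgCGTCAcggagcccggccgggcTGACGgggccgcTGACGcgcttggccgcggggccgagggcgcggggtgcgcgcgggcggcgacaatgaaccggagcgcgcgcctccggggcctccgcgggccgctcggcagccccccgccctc
Nr4a3: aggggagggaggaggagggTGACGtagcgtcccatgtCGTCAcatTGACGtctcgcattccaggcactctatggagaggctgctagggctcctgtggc
Egr2: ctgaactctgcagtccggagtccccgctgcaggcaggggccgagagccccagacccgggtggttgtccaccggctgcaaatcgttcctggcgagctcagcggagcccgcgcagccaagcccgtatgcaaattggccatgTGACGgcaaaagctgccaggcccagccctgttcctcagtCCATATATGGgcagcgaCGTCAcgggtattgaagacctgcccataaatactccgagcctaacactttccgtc

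Each of the 3 NR4A windows held 4 matches to the half-site within 250 bases, counted on both strands. Counted from the start site, they began at -233, -213, -69 and -40 in Nr4a1 and at -200, -144, -123 and -111 in Nr4a2. In Nr4a3 they began at -231, -213, -205 and -147, and the last lies in a stretch annotated as an exon of Nr4a3 and is not printed. Of 32851 RefSeq windows of the same length, 17.8% held the half-site at least once and 0.137% held it at least 4 times. The Egr2 window shown held 2 half-sites and 1 CArG box, CCATATATGG, which lies from -72 to -63. A CArG box occurred in 1.47% of all windows and in 0 of the 3 NR4A windows. Egr2 has 5 overlapping or neighbouring windows in the table, of which 3 held 2 half-sites and the other two held 0. An EGR site (GCGNGGGCG) matched once in the Nr4a1 window and once in the Nr4a2 window, against 4.7% of all windows, and neither family's windows held the NR4A motif AAAGGTCA. The GC box (GGGCGG, in 32.7% of all windows) occurred in each of the 3 NR4A windows, and in those of Nr4a1 and Nr4a2 it overlapped the EGR site. The NFAT core (GGAAA, in 55.6% of all windows) matched once in the Nr4a2 window and once in the Egr2 window shown. The full palindrome TGACGTCA, which contains the half-site on both strands, and the MEF2 box matched none of these 4 windows. The windows are GC-rich, at 74.4% for Nr4a1, 80.0% for Nr4a2, 63.6% for Nr4a3 and 61.6% for Egr2. The shares over all windows are not matched for GC content, so they are no like background for these motifs. A match describes letters and shows no binding.

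**Figure D1:**
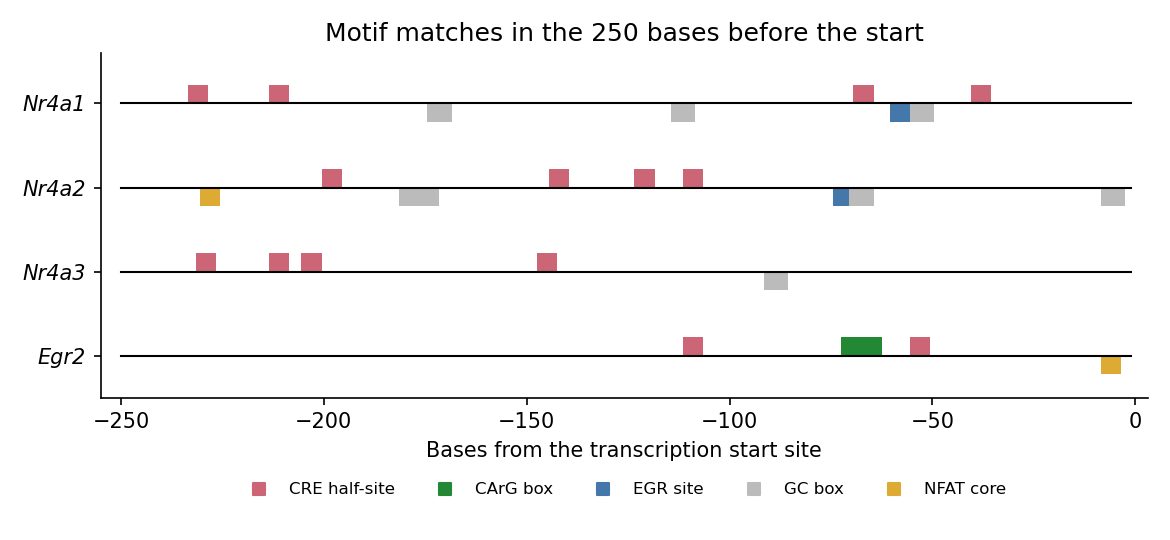
Motif matches on either strand in the 250 bases before the start site of Nr4a1, Nr4a2, Nr4a3 and Egr2 (x axis, bases from the start site). Coloured boxes above each line are CREB half-sites and the CArG box, those below are EGR sites, GC boxes and NFAT cores; the NR4A lines carry 4 half-sites each and the Egr2 line 2 half-sites beside 1 CArG box.

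All 3 NR4A genes were higher in KO Tregs, and no EGR gene was called changed. By the quasi-likelihood test of edgeR, adjusted over 13626 genes by the method of Benjamini and Hochberg and read at a threshold of 0.05, 3 of 3 NR4A genes passed as higher, against 3.68% of all genes tested. Of the 3 EGR genes, 0 passed, against 6.5% of all genes called in either direction and 2.83% called lower. All 3 NR4A genes also had KO libraries that lay wholly above the WT libraries, which held for 13.7% of all genes. The members have no annotated overlapping gene in GENCODE M21. The annotation used for counting is not given, so overlap in it could not be checked.

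Nr4a1 (ENSMUSG00000023034, chromosome 15, 101254269 to 101274795, plus strand of GRCm38) is the family member most used to report antigen receptor signal. Its level per transcript length was 155.5, 237.6 and 211.7 FPKM (fragments per kilobase of transcript, scaled to library size) in WT 1, WT 2 and WT 3 and 453.4, 415.8 and 383.0 FPKM in KO 4, KO 5 and KO 6. WT 1 was the lowest library, and the lowest KO library stood well above the highest WT library. The means were 201.6 ± 41.9 FPKM in WT and 417.4 ± 35.2 FPKM in KO (SD, n = 3 each). The log2 fold change fitted on the counts was 1.05 (SE 0.17, 95% interval 0.61 to 1.49, edgeR adjusted p = 0.0331). By mean FPKM, Nr4a1 ranked 172 among 37187 genes in WT and 64 in KO.

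Nr4a2 (ENSMUSG00000026826, chromosome 2, 57106830 to 57124003, minus strand) encodes a relative of Nr4a1 best known from dopamine neurons and also induced in T cells. It stood at 2.66, 6.04 and 5.29 FPKM in WT 1, WT 2 and WT 3 and at 19.6, 20.97 and 19.4 FPKM in KO 4, KO 5 and KO 6. The KO libraries lay close together and the WT libraries were spread, with WT 1 again lowest. The coefficient of variation of its CPM was 38.0% in WT and 3.98% in KO. The log2 fold change was 2.11 (SE 0.32, 95% interval 1.26 to 2.96, edgeR adjusted p = 0.0370), the largest of the 6 members. Ranked by log2 fold change, Nr4a2 was number 5 from the top of 10104 tested genes with a mean of at least 5 CPM in either group, where Nr4a1 was number 53 and Nr4a3 number 133.

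Nr4a3 (ENSMUSG00000028341, chromosome 4, 48045153 to 48086447, plus strand) encodes the third receptor of the family. Its levels were 11.1, 13.6 and 14.1 FPKM in WT 1, WT 2 and WT 3 and 24.3, 20.6 and 17.5 FPKM in KO 4, KO 5 and KO 6. The groups did not overlap, and here the KO libraries were the more spread. The log2 fold change was 0.69 (SE 0.14, 95% interval 0.35 to 1.03, edgeR adjusted p = 0.0391).

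These 3 calls lay close under the threshold, and most were lost when a library was left out, while the direction held. Without WT 3, KO 4, KO 5 or KO 6 the edgeR adjusted p of Nr4a1 was 0.0840, 0.115, 0.124 and 0.104. For Nr4a2 the same 4 libraries gave 0.118, 0.0994, 0.133 and 0.115. Nr4a3 lost its call without WT 2 (0.0709), WT 3 (0.0648) and KO 5 (0.120). Without WT 1, the lowest library for all 3 genes, the adjusted p fell to 1.77e-05 for Nr4a1 and 1.29e-08 for Nr4a2 and was 0.0472 for Nr4a3, with log2 fold changes of 0.90, 1.82 and 0.59.

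**Figure D2:**
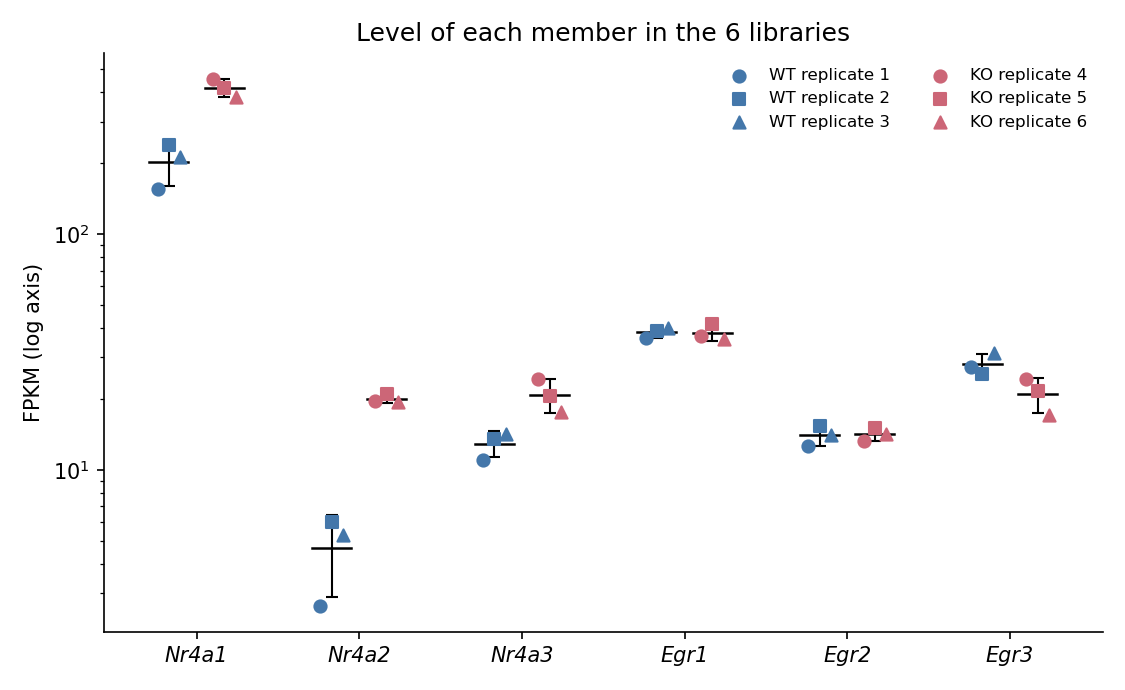
Level of each member in FPKM (log axis) in the 6 libraries; symbols are single libraries, blue for WT and red for KO, and the bars give the mean and SD of 3 libraries. The KO libraries of Nr4a1, Nr4a2 and Nr4a3 lie above all WT libraries, those of Egr1 and Egr2 overlap with WT, and those of Egr3 lie below.

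Egr1 (ENSMUSG00000038418, chromosome 18, 34859823 to 34864984, plus strand) is the family member most directly tied to ERK signalling. It was at 36.1, 38.8 and 39.8 FPKM in WT 1, WT 2 and WT 3 and at 36.8, 41.7 and 36.0 FPKM in KO 4, KO 5 and KO 6. The groups overlapped throughout. The 95% interval of its log2 fold change ran from -0.14 to 0.14 around 0.00 (SE 0.07).

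Egr2 (ENSMUSG00000037868, chromosome 10, 67535475 to 67542188, plus strand), which restrains T cell activation together with Egr3, was at 12.6, 15.3 and 14.1 FPKM in WT 1, WT 2 and WT 3 and at 13.2, 15.1 and 14.2 FPKM in KO 4, KO 5 and KO 6. These groups overlapped as well. Its log2 fold change was 0.02 (SE 0.08, 95% interval -0.15 to 0.20, edgeR adjusted p = 0.919). For both genes the interval leaves out a change of the size fitted for Nr4a3.

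Egr3 (ENSMUSG00000033730, chromosome 14, 70077203 to 70082614, plus strand) pointed downward without passing the test. It was at 27.3, 25.5 and 31.2 FPKM in WT 1, WT 2 and WT 3 and at 24.2, 21.5 and 17.1 FPKM in KO 4, KO 5 and KO 6. Every KO library was below every WT library, which was the case for 12.6% of all genes. Its log2 fold change was -0.41 (SE 0.12, 95% interval -0.69 to -0.14), with an edgeR adjusted p of 0.0769. It passed as lower without WT 2 (edgeR adjusted p = 0.0393) and without KO 4 (0.0270). DESeq2 gave it an adjusted p of 0.0169, where 4.28% of the genes tested were called lower.

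Ordered by mean FPKM in WT, the members ran from Nr4a1 through Egr1, Egr3, Egr2 and Nr4a3 to Nr4a2. Neighbours in that order did not overlap between libraries, except Egr2 and Nr4a3. In KO the order was Nr4a1, Egr1, Egr3, Nr4a3, Nr4a2 and Egr2. There Egr3 overlapped with Nr4a3 and Nr4a3 with Nr4a2, so these 3 genes, which were well apart in WT, were at a like level in KO. Nr4a1 made up 92.0% ± 0.394 of the summed NR4A FPKM in WT and 91.1% ± 0.166 in KO (SD, n = 3 each). The share of Nr4a2 was 2.07% ± 0.434 in WT and 4.38% ± 0.383 in KO, without overlap between the libraries. Within the EGR sum, the share of Egr1 was 47.7% ± 0.969 in WT and 52.1% ± 2.18 in KO.

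**Figure D3:**
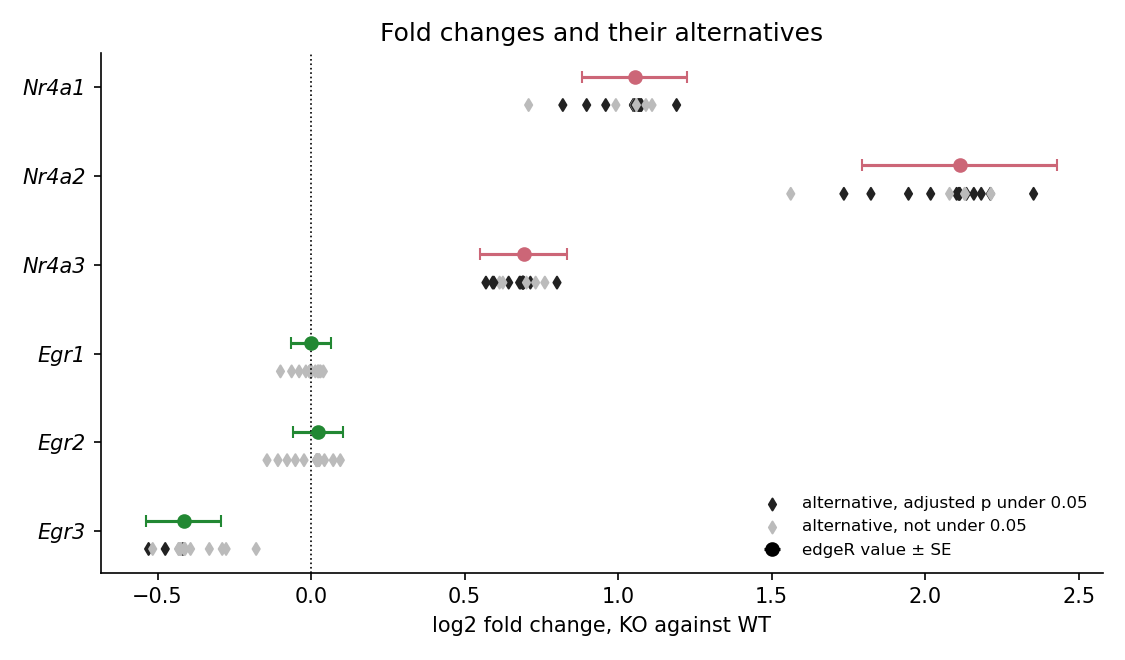
Log2 fold change of each member, KO against WT (x axis), from edgeR with its SE (circles) and under 18 alternatives (diamonds, dark where the adjusted p was under 0.05). Every NR4A value lies above 0, Egr1 and Egr2 lie on both sides of 0, and every Egr3 value lies below it.

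The contrast between the families was read in each library as the mean log2 FPKM of the NR4A genes minus that of the EGR genes. It was -0.48, 0.12 and -0.05 in WT 1, WT 2 and WT 3 and 1.40, 1.24 and 1.30 in KO 4, KO 5 and KO 6. The KO libraries thus lay close together and apart from WT, whose mean was -0.14 ± 0.309 against 1.31 ± 0.0783 in KO (SD, n = 3 each). The fitted log2 fold changes differed by 1.42 between the means of the families, 1.29 for NR4A and -0.13 for EGR. For the single pair Nr4a1 and Egr1, the ratio of FPKM was 4.31, 6.12 and 5.31 in WT and 12.3, 9.97 and 10.6 in KO. The lower bounds of the intervals of all 3 NR4A genes lie above the upper bounds of all 3 EGR genes. The difference between the families was given no p-value, since it is a score over chosen genes.

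**Figure D4:**
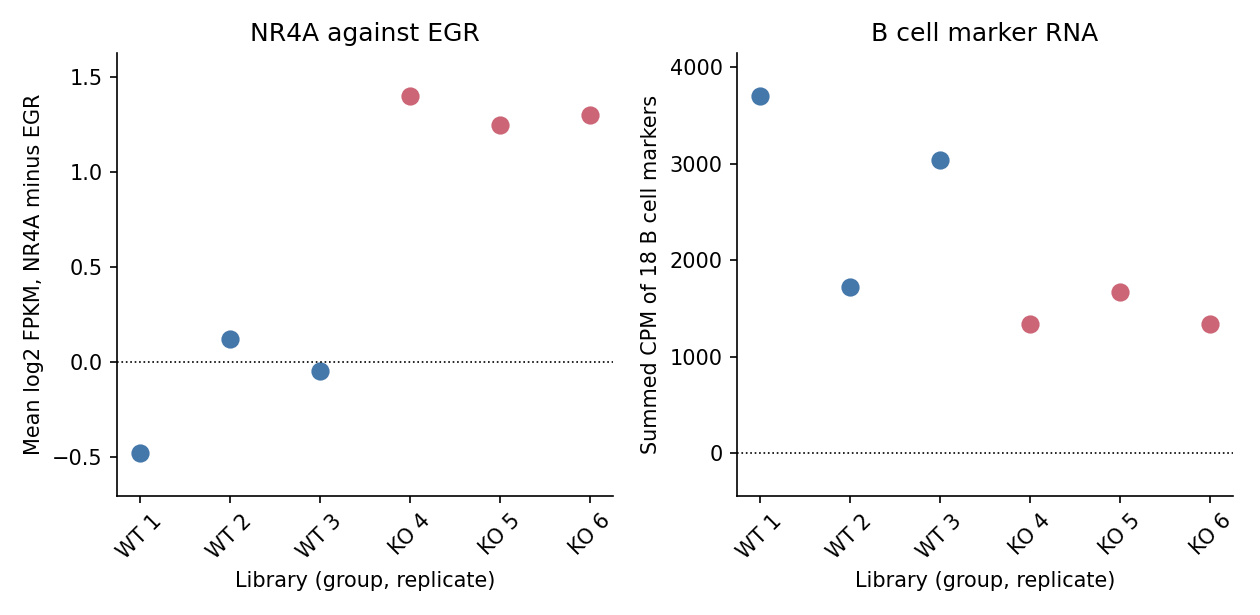
Mean log2 FPKM of the NR4A genes minus that of the EGR genes (left) and the summed CPM of 18 B cell markers (right) in each library, blue for WT and red for KO. The contrast lies between -0.48 and 0.12 in WT and between 1.24 and 1.40 in KO, while the marker sum is highest in WT 1 and WT 3.

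The B cell marker sums were lower in KO libraries and also varied inside the WT group. Their part in the NR4A levels was not tested. WT 1, with the highest B cell marker sum of 3705 CPM, had the lowest level of all 3 NR4A genes. Within WT, Nr4a1 and Nr4a2 were highest in WT 2, which had the lowest sum of 1726 CPM. Nr4a3 was highest in WT 3 (14.1 FPKM), where the sum was 3042 CPM. WT 2 and KO 5 had like marker sums, 1726 and 1673 CPM. Their levels were 237.6 and 415.8 FPKM for Nr4a1, 6.04 and 20.97 FPKM for Nr4a2 and 13.6 and 20.6 FPKM for Nr4a3. This pair holds only 1 library of each group, so no conclusion is drawn from it. With WT 2 as the lone WT library, which is then assumed to vary like the KO libraries, the log2 fold changes were 0.82 for Nr4a1, 1.74 for Nr4a2 and 0.62 for Nr4a3. Since 1 WT library holds no spread, adjusted p-values and calls are not given for that fit. With the B cell marker score as a covariate the log2 fold changes were 0.71, 1.56 and 0.61, and none passed (edgeR adjusted p = 0.344, 0.420 and 0.526). That score, the mean log2 CPM of the markers, was 5.09 to 6.78 in WT and 4.12 to 4.87 in KO. The groups do not overlap in it, so in this fit B cell RNA and genotype cannot be told apart. Scaled to the summed counts of 8 T cell genes, an alternative chosen after the data were seen, all genes shifted by a median of -0.10 and the genes called split into 261 higher and 743 lower, where TMM scaling gave 501 and 385. The 3 NR4A genes still passed under that scaling, with 0.96, 2.02 and 0.60, and the EGR genes had -0.10, -0.08 and -0.52.

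Part of the genes of heat shock and tissue handling were higher in KO, where 3.68% of all genes tested were called higher. This list and those that follow were chosen with earlier results of these data known. The shares over all genes are therefore no independent background for them. Of 14 tested, 5 rose and 0 fell (median log2 fold change 0.36, all genes 0.00). Bag3, a co-chaperone, rose by 1.19 (SE 0.12), Dnaja1 by 0.52, Hsph1 by 0.50 and Dnajb4 by 0.87 on the log2 scale. Hspb1, named after its value was seen, rose by 1.21. The whole list summed to 5538, 6728 and 6502 CPM for WT 1, WT 2 and WT 3, and for KO 4, KO 5 and KO 6 it was 6744, 7486 and 7758 CPM. The part of handling in the NR4A levels was not tested. The number risen was 9 by DESeq2, 10 with no filter, 8 without WT 2, 3 without WT 3 and 2 without KO 5 or KO 6. Hsph1 reached an edgeR adjusted p of 0.116, Dnajb4 of 0.115 and Hspb1 of 0.163 when single libraries were left out.

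Most signalling genes upstream of both families did not pass the test, as was true of most genes tested. Of all genes tested, 6.5% were called, with 3.68% higher and 2.83% lower. Of 24 genes of the antigen receptor and its proximal kinases, 2 rose and 1 fell (median log2 fold change 0.02). The T cell scaling is not read for this list, which holds all 8 of the scaling genes. The costimulatory receptor gene Cd28 rose by 0.38 (SE 0.07) and the adaptor gene Lcp2, which encodes SLP-76, by 0.26 (SE 0.05), while Ptpn6, the phosphatase SHP-1, fell by 0.36 on the log2 scale. Of 22 tested genes of the calcium, calcineurin and NFAT arm, 0 rose and 1 fell, with a median of -0.03, where DESeq2 and the fit with no filter each called 1 higher and 4 lower and the T cell scaling 0 higher and 3 lower. The gene called by edgeR was Orai2, a calcium channel subunit, which fell from 114.9 ± 12.1 to 88.2 ± 3.83 CPM. Of 11 MEF2 and histone deacetylase genes, regulators that hold NR4A genes silent or release them, 0 passed by edgeR, 1 was called lower by DESeq2 or with no filter and 2 with the T cell scaling, and the 2 with the smallest p were Hdac5 at -0.21 and Prkd2 at -0.16. Without single libraries Cd28 reached an edgeR adjusted p of 0.0520 (WT 3), Lcp2 0.0720 (WT 3), Orai2 0.0501 (KO 5) and Ptpn6 0.0988 (WT 3). Ptpn6 is also high in B cells, whose markers were lower in KO, and the part of B cell RNA in its fall was not tested. Its call was kept in the fit without WT 2 and lost in the other 5. Without WT 2 the calcium list had 3 genes lower and the MEF2 list 2. The calcium list had 1 higher and 2 lower without KO 4 and 0 without KO 5, and the MEF2 list 1 without KO 4. The proximal list had 1 higher without WT 1 and 0 without WT 3.

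Genes of the ERK and CREB arms that feed the families rose in part. Over all genes tested, 3.68% were called higher and 2.83% lower. Of 27 genes of the ERK and serum response factor arm, 4 rose and 1 fell (median log2 fold change 0.05, and -0.05 scaled to the T cell genes). Ier2, an immediate early gene, rose from 199.8 ± 11.0 to 260.1 ± 9.86 CPM, Spry1, an inhibitor of ERK signalling, by 0.56 and Dusp5, an ERK phosphatase, by 0.76 on the log2 scale. Map2k1, which encodes the ERK kinase MEK1, fell by 0.24 on the log2 scale. Dusp4, another ERK phosphatase, named after its value was seen, rose by 1.16 (SE 0.21). Of 21 CREB and cAMP-responsive genes, 5 rose and 0 fell, with a median of 0.11. Areg, the growth factor amphiregulin, rose from 5.04 ± 1.46 to 14.3 ± 3.05 CPM, and the clock gene Per1 rose from 111.7 ± 18.4 to 227.2 ± 24.5 CPM. Rgs2, which dampens G protein signalling, rose by 1.19 and the adenosine receptor gene Adora2a by 0.33 on the log2 scale. Fosl2, an AP-1 subunit named after its value was seen, rose by 2.23. Ier2, Rgs2 and Areg kept their calls whichever library was left out. Per1 stood at 0.0549 by edgeR without KO 4, and the highest values over the libraries left out were 0.102 for Map2k1, 0.107 for Spry1, 0.149 for Dusp5, 0.152 for Dusp4, 0.102 for Adora2a and 0.0812 for Fosl2. The ERK genes risen numbered 2 without WT 3 or KO 5 and 1 without KO 4 or KO 6. The CREB genes risen numbered 8 by DESeq2, 9 with no filter and 3 without KO 5 or KO 6.

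Genes that the families are reported to act with or upon also moved in part. Among all genes tested, 3.68% were called higher and 2.83% lower. Of 19 NR4A partners and reported targets, 4 rose and 1 fell (median log2 fold change 0.15). Tox2, a DNA-binding factor of chronically stimulated T cells, rose from 6.51 ± 0.371 to 10.1 ± 1.26 CPM, the ectonucleotidase gene Entpd1 by 0.35, Ikzf4, a Treg factor, by 0.32 and the PD-1 gene Pdcd1, named after its value was seen, by 0.36. Rxrb, a retinoid receptor of the group that pairs with Nr4a1 and Nr4a2, fell from 106.3 ± 2.80 to 88.9 ± 0.656 CPM. Foxp3, a reported NR4A target, was at 750.6 CPM in WT and 831.7 CPM in KO and was not called (edgeR adjusted p = 0.160). None of the 4 rises was called without WT 1, WT 3 or KO 6, or by limma on log2(FPKM + 1) and log2(FPKM + 0.1), where 0 of the list rose. With no filter 7 rose. The list had 2 risen without KO 5 and 8 without WT 2, and Rxrb stood at 0.0626 by edgeR without WT 1. Scaled to the 8 T cell genes, 1 gene rose and 1 fell.

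Of 24 EGR cofactors and reported targets, 5 rose and 0 fell, where 3.68% of all genes tested were called higher. The median was 0.07, or -0.03 scaled to the T cell genes and -0.01 with the B cell score as covariate. Bhlhe40, a repressor induced by receptor signal, rose from 45.2 ± 6.96 to 121.6 ± 11.3 CPM and the cell cycle inhibitor gene Cdkn1a from 4.88 ± 0.829 to 10.6 ± 1.75 CPM. Nrn1, a surface protein gene also known from anergic T cells, rose by 0.48, the adhesion receptor gene Cd44 by 0.30 and the death ligand gene Fasl, named after its value was seen, by 0.76 on the log2 scale. Bhlhe40 and Cdkn1a kept their calls whichever library was left out, and the highest edgeR adjusted p was 0.0796 for Nrn1, 0.128 for Cd44 and 0.130 for Fasl. The number risen was 3 without WT 1, KO 5 or KO 6 and 2 without WT 3 or KO 4. It was 3 by limma on either FPKM scale. Scaled to the 8 T cell genes, 4 rose and 2 fell.

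Receptor-induced surface and effector genes and immediate early genes rose in larger numbers, where 3.68% of all genes tested were called higher. The part of receptor signal or of tissue handling in these rises was not tested. Both lists were chosen with earlier results of these data known, so that share is no independent background for their counts. Of 22 receptor-induced surface and effector genes, 9 rose and 0 fell (median log2 fold change 0.35), and of 23 AP-1 and other immediate early genes tested, 14 rose and 0 fell, with a median of 0.50. Nfkbid, an NF-kB regulator, Cd69, Ifng and Ctla4 led the first list by p, and Klf6, Zfp36, Nfil3 and Fos the second. Fos, an AP-1 subunit and like Egr1 a classical target of serum response factor, rose from 426.5 ± 59.3 to 843.5 ± 62.9 CPM, or by 0.98 on the log2 scale (SE 0.10), with an adjusted p of 0.00138 by edgeR. Nfil3, a basic leucine zipper repressor, rose from 19.6 ± 4.32 to 48.6 ± 1.43 CPM. These 8 genes kept their calls whichever library was left out. The AP-1 list summed to 6116 to 7016 CPM in WT and 9879 to 10814 CPM in KO, without overlap. Its number risen was 9 without KO 6. With the B cell score as covariate, 4 of the AP-1 list, 3 of the surface and effector list, 1 of the CREB list, 1 of the EGR list and 0 of the other 6 lists were called.

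**Figure D5:**
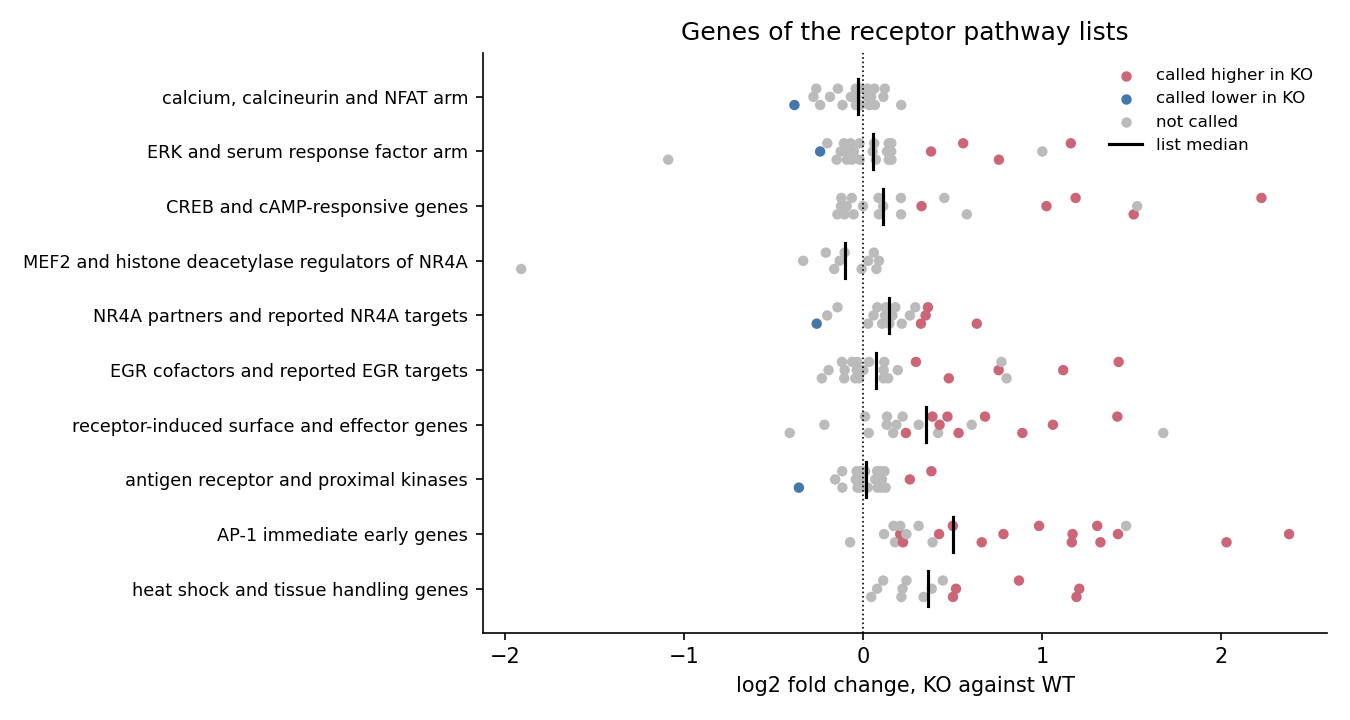
Log2 fold change, KO against WT (x axis), of every tested gene of the 10 pathway lists; red points were called higher in KO, blue points lower and grey points not called, and black bars are list medians. The medians run from -0.10 for the MEF2 list to 0.50 for the AP-1 list, against 0.00 for all genes.

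The genes whose pattern over the 6 libraries was most like each member were found by Pearson's r of log2 CPM among 9510 genes with a mean of at least 5 CPM. The points share their library scaling, and for genes that differ between the groups r mostly reflects that gap, so it is given as a description. Nr4a1 was most like Tnfaip3, which encodes the NF-kB inhibitor A20 (r = 0.999), Nfkbia (0.998) and the helicase gene Ddx5 (0.998). Nr4a2 was most like Gadd45b, a stress-induced gene, Rgs1 and Pnrc1, a nuclear receptor coactivator gene (r of 0.998, 0.998 and 0.996). Nr4a3 was most like Skil, which encodes the TGF-beta pathway repressor SnoN (0.994), Glce (0.993) and P3h1 (0.992). The closest to Egr1 were Ndufaf6 (0.989), Prkar1a, the regulatory subunit gene of protein kinase A (0.986), and Tmem30a (0.977). Among the closest to Egr2 were Cdkn2aip and Plcd1 (0.990 and 0.984), and the closest to Egr3 were Xpnpep3, Prdm15 and Top2b (0.993, 0.988 and 0.987). An r over 0.95 was reached by 202 genes for Nr4a1, 208 for Nr4a2 and 119 for Nr4a3, and by 11 for Egr1, 14 for Egr2 and 47 for Egr3. Among the members, r was 0.992 between Nr4a1 and Nr4a2, 0.964 between Nr4a1 and Nr4a3 and 0.686 between Egr1 and Egr2, and it was -0.685 between Nr4a1 and Egr3.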

How the data were processed

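The submitters' processing notes name STAR 2.4.2a, bcl2fastq, DESeq2 and the build GRCm38. How reads were counted, whether by strand and with which annotation are points not given in the sources used here. Raw counts by Ensembl gene ID were deposited, as were normalized counts per symbol (a signal with no fixed total, equal to raw counts over 1 factor per library within 1e-06 for 99.87% to 99.89% of genes over 50 counts) and FPKM per symbol (normalized counts over 1 constant per gene for over 99.9% of 9335 genes). Symbols came by gene ID from GENCODE M21, which matched 35412 of 37187 IDs.

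Counts as deposited went into edgeR 4.0.16 under R 4.3.3 (filterByExpr, TMM, robust glmQLFit and glmQLFTest, two-sided, Benjamini-Hochberg over 13626 genes, threshold 0.05). SEs came from the F statistic and 95% intervals from the test's degrees of freedom. Levels between genes are FPKM; CPM use TMM factors. Chi-square over degrees of freedom between replicates ran from 4.81 to 13.4, so every pair differed by more than sampling noise. The fit was first tested on simulated data. Members and the 10 pathway and 10 marker lists were chosen with earlier results of these data known. Named are the members, up to 4 called genes per list with the smallest p (2 as values where none passed) and 3 genes most like each member, of which 1 is not reported here; calls of 5 or fewer beyond this are named as chosen later. Alternatives were DESeq2 1.42.0, limma-voom (limma 3.58.1), RLE and upper-quartile factors, other filters, limma with pseudocounts of 1 and 0.1 on log2 FPKM and of 1 on log2 normalized counts, a B cell score as covariate, leaving out WT replicates 1 and 3 or each library, and, added later, scaling to 8 T cell genes (Cd3d, Cd3e, Cd3g, Cd247, Cd4, Cd28, Lck and Lat).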

Additional observations from a re-analysis of the deposited data

How the results depend on the processing

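No paired analysis was possible because the groups share no replicate numbers. Under 18 alternatives all NR4A log2 fold changes stayed above 0 and all Egr3 values below 0. Calls of the fit with WT 2 as the lone WT library are not read. In the other fits all 3 NR4A genes lost their calls with the B cell score as covariate, and Nr4a1 also with no filter. Nr4a1 and Nr4a2 lost theirs without WT 3, KO 4, KO 5 or KO 6, and Nr4a3 without WT 2, WT 3 or KO 5. Egr3 passed only by DESeq2, with no filter, without WT 2 and without KO 4. With no filter Nr4a1 was 1.05 (adjusted p = 0.0526) and Egr3 -0.42 (0.000112), and DESeq2 gave Egr3 -0.42, so that 1 EGR gene passed in each. With B cell score as covariate 0 NR4A genes passed, Nr4a1, Nr4a2 and Nr4a3 were 0.71, 1.56 and 0.61 and the difference between the families was 1.06. Without WT replicates 1 and 3 Nr4a1, Nr4a2 and Nr4a3 were 0.82, 1.74 and 0.62. Egr1, at 0.00, changed sign to -0.0026 with RLE, -0.0023 with DESeq2, -0.00034 with limma-voom, -0.00052 with no filter, -0.0042 on log2(FPKM + 1), -0.0044 on log2(FPKM + 0.1) and on log2(normalized count + 1), -0.017 without WT replicates 1 and 3 and -0.10 scaled to T cell genes. Egr2 changed sign to -0.14 with the covariate, -0.11 without WT replicates 1 and 3 and -0.078 scaled to T cell genes. Outside the fit with 1 WT library, none of these Egr1 or Egr2 values passed. Leaving out each library gave 0.90 to 1.19 for Nr4a1, 1.82 to 2.35 for Nr4a2, 0.57 to 0.80 for Nr4a3, -0.063 to 0.040 for Egr1, -0.051 to 0.10 for Egr2, -0.53 to -0.29 for Egr3 and 1.28 to 1.55 for the difference between the families. NR4A genes called then numbered 0 to 3 and EGR genes 0 to 1. The genes called in all, 886, were 1645 with no filter, 397 on log2(FPKM + 1), 411 on log2(FPKM + 0.1), 75 with the covariate, 282 without WT replicates 1 and 3 and 367 to 1364 with single libraries left out. The pathway list genes called were 9 with the covariate, 29 without WT replicates 1 and 3 and 32 to 65 with single libraries left out, against 52. Apart from the fewer libraries or genes some settings use, the cause of these shifts was not tested. The upper-quartile factors and the 1 CPM filter changed no member's call. With 3 libraries a group and edgeR adjusted p-values of 0.0331 to 0.0391, the NR4A calls have little margin by that test. For Nr4a1, Nr4a2 and Nr4a3, limma-voom gave adjusted p-values of 0.0354, 0.0187 and 0.0436. DESeq2 gave 2.02e-06, 1.43e-07 and 6.03e-08, so the margin depends on the test used.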
